A study of Mus musculus with 4 samples.

Results

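The B zone of a mouse draining lymph node, the region that the authors' spot table names for the B cell follicles, was described from 1294 of 7271 spatial transcriptomics spots (17.8%). A spot entered the set when its final region name in that table was B zone, and no measured value was used in the choice made here, although the authors' regions themselves follow expression clusters. The node came from mice immunized 14 days and gavaged from 3 days before collection. The sources used here do not give the immunogen, the gavaged agent, the strain, the sex, the age or the number of animals, and they do not explain the tag eYFP in the section names. All samples form 1 group, so no treatment is compared. They are 4 serial sections (A to D) of 10 µm, lying 50 µm apart, on 1 Visium slide, which captures RNA on a hexagonal array of barcoded spots, each covering a small area that can hold several cells of different types.

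B cell follicles lie under the capsule of a lymph node, where naive B cells gather on a network of follicular dendritic cells and scan antigen arriving with the lymph. On their inner side they meet the T zone, and elsewhere the medulla, through which plasma cells and lymph leave. After immunization germinal centres form inside the follicles, and the remaining follicle surrounds them as a mantle. The mantle's naive B cells are known by IgD (Ighd), CD20 (Ms4a1) and the low-affinity IgE receptor CD23 (Fcer2a). Values of single genes were not analysed here, so the name B zone was not checked against these 3 genes, and it is set against the authors' clusters and the spots' positions instead.

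The B zone held 318, 351, 319 and 306 spots in sections A, B, C and D. These were 19.3% (exact binomial 95% interval 17.4 to 21.3), 18.7% (17.0 to 20.5), 17.2% (15.5 to 19.0) and 16.2% (14.6 to 18.0) of the sections' spots. The intervals cover counting error only. B zone spots of sections A and B were about as deep as each other and deeper than those of C and D. UMIs (unique molecular identifiers, by which captured RNA molecules are counted once) summed to 3517672, 4259949, 1878636 and 1712488 over the B zone of A, B, C and D. The lowest B zone spot held 1091 UMIs and the highest 26702. Differences are therefore formed within a section, and the section is the unit (n = 4).

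By the authors' clusters, the B zone was close to the rim of the germinal centre. Of its 1294 spots, 1291 lay in 1 of the 4 fine expression clusters. That cluster held 1947 spots, of which 655 bore the name GC_B Border, so the clusters did not separate B zone from GC_B Border. Position did. GC_B Border spots lay 1 step on the array from a dark zone (DZ) or light zone (LZ) spot of a germinal centre, and B zone spots lay 2 to 11 steps from one. The sources used here do not give the rule for the names, and a rule based on this distance would fix that separation in advance. The 3 B zone spots of other clusters were all in section B, and all touched the T zone.

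The B zone held more of the tissue rim than any other region, with 521 of the 1032 spots at the tissue edge (50.5%), which are spots with fewer than 6 tissue neighbours. The Medulla held 335 edge spots (32.5%), GC_B Border 118 (11.4%) and the T zone 11. Edge spots made up 38.4%, 39.0%, 39.8% and 44.1% of the B zone in A, B, C and D, against 17.7% of GC_B Border, 15.7% of Medulla and 0.600% of T zone spots over all sections. The sources used here do not say whether a tissue edge is capsule or a cut side, and 14 of the edge spots lay on the frame of the capture array. Of the contacts between a B zone spot and a tissue neighbour, 76.0% ± 2.41 (SD, n = 4 sections) were with another B zone spot, 13.3% ± 2.30 with GC_B Border, 5.24% ± 1.72 with Medulla and 4.75% ± 1.74 with T zone. The B zone was broken into 18, 20, 28 and 17 connected patches in A, B, C and D, and the 4, 5, 6 and 5 patches of at least 20 spots held 89.6%, 82.9%, 84.0% and 80.7% of its spots.

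**Figure D1:**
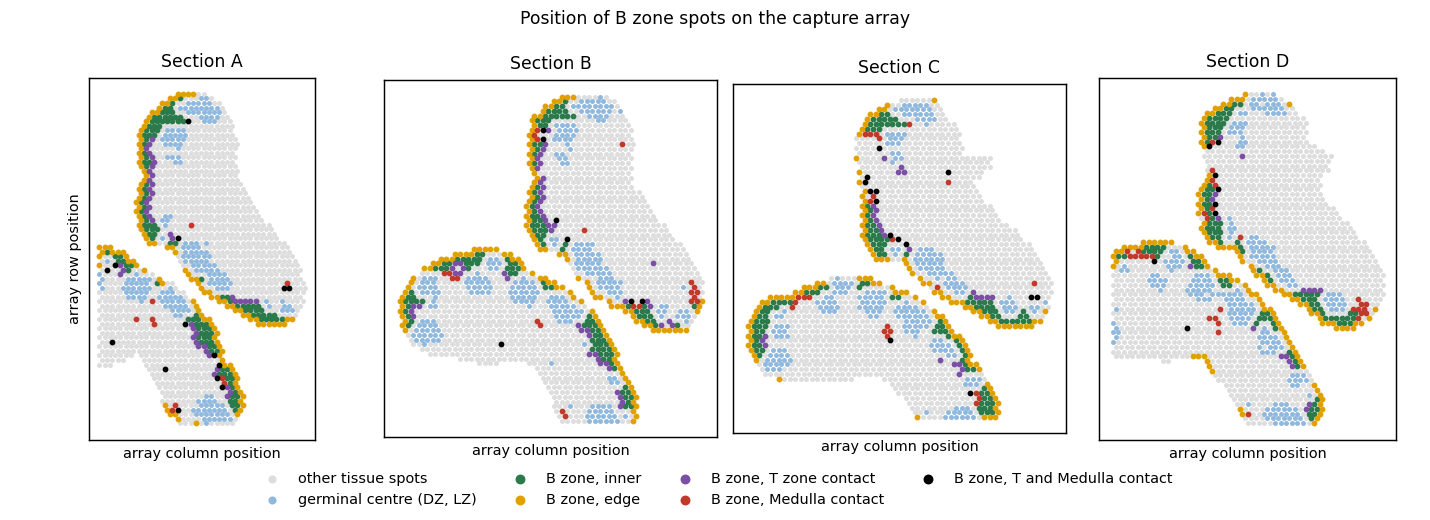
Position of the tissue spots on the capture array in sections A to D (array column against array row), with B zone spots coloured by position class, germinal centre spots in blue and other tissue in grey. The B zone runs as thin bands along parts of the outer tissue rim, where 521 of its 1294 spots lie at the edge, with T zone contacts on its inner side.

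Spots were divided into 5 position classes that do not overlap. The edge class had 521 spots, the inner class 506 (6 tissue neighbours, none of them T zone or Medulla), T zone contact 139, Medulla contact 85, and contact with both 43. T zone contact was more frequent in A and B (44 and 53 spots) than in C and D (25 and 17). Medulla contact had 10, 22, 23 and 30 spots in A, B, C and D. The germinal centre zone nearest to a B zone spot was the LZ for 785 spots (60.7%), the DZ for 317 (24.5%), and both at the same distance for 192 (14.8%). The LZ share was highest in section D (70.9%) and 54.9% to 60.7% in the others.

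Beside the other regions, the B zone shared a high ribosomal percent with the T zone. These levels are a description with no test, since the regions rest on clusters of the same expression data. The percent of UMIs from ribosomal genes, which encode the proteins of the ribosome, was 26.5, 24.1, 22.4 and 22.0 in A, B, C and D (23.8 ± 2.01, SD, n = 4). It differed from that of the T zone by 0.0152 ± 0.582 percentage points, and this difference turned to -0.544 with medians over spots and to -0.549 on residuals of a linear fit on log10 UMIs within the section. It was above GC_B Border by 0.980 ± 0.0947 and above Medulla by 6.68 ± 1.50 percentage points, in 4 of 4 sections each. The mitochondrial percent was 5.69, 5.22, 4.58 and 5.45 (5.24 ± 0.473), second to Medulla (5.58), and the B zone was above Medulla in 1 of 4 sections. This order differed between the 2 separate pieces of tissue in each section, with the B zone above Medulla by 0.783 percentage points in the lower piece (4 of 4 sections) and a difference of -1.10 in the upper (0 of 4 above). It was 0.800 ± 0.352 percentage points above GC_B Border and 1.13 ± 0.560 above T zone, in 4 of 4 sections each.

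Mean UMIs per spot were 11062, 12137, 5889 and 5596 in A, B, C and D. The B zone lay below the DZ and LZ, and above the T zone by 1974 ± 578 and Medulla by 4366 ± 1815 UMIs, in 4 of 4 sections each. From GC_B Border it differed by 61.7 ± 216 UMIs, with 2 sections on each side. In such spots more cells and more RNA per cell cannot be told apart. A mean of 2953 ± 727 genes was detected per spot.

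The 6 deposited scores summarise gene lists that the sources used here do not give. They have no true zero, so only differences are formed. Mo_GC_vs_Mem is read here, from its name, as a germinal centre over memory B cell score, and pc_markers as a plasma cell marker score. Plasma cells are the antibody-secreting end cells of the B lineage. Mo_Nr4a1_SC, Mo_Inmt_SC, Mo_Nr4a1Inmt_SC and Mo_CD34_SC carry the names of Nr4a1, an immediate early nuclear receptor, Inmt, a methyltransferase, and Cd34, a surface sialomucin of endothelial and stromal cells. CD34-positive stromal cells are known from the lymph node capsule and the outer sheath of its vessels. Whether these 4 scores track such cells is not stated.

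Mo_GC_vs_Mem was 0.185, 0.195, 0.177 and 0.175 in the B zone of A, B, C and D. It lay below GC_B Border by 0.0142 ± 0.00385 and above T zone by 0.0348 ± 0.00598 in 4 of 4 sections each. A B zone spot exceeded a T zone spot of its section in 90.8% ± 1.21 of pairs, but a GC_B Border spot in 32.1% ± 2.12. No B zone spot reached the median DZ or LZ spot of its section (0 of 1294, which allows a share of up to 0.232% by counting error alone, with spots taken as independent, which neighbouring spots are not). The section means of the B zone thus lay between those of T zone and germinal centre.

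The plasma cell marker score pc_markers was 0.172, 0.191, 0.149 and 0.145 in A, B, C and D, with 4 of the 8 regions above it on average. It was lower than in T zone by 0.0402 ± 0.00569 and than in Medulla by 0.115 ± 0.0421, in 4 of 4 sections each. Against GC_B Border it differed by 0.00364 ± 0.00435, about 1 SD, with 3 of 4 sections above. A minority of B zone spots was high: 194 (15.0%) exceeded the median T zone spot of their section and 53 (4.10%) the median Medulla spot. The latter were 6, 1, 30 and 16 spots in A, B, C and D. Of the inner spots 6.13% exceeded the T zone median, against 17.3% of edge, 27.3% of T zone contact and 27.1% of Medulla contact spots.

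Mo_CD34_SC varied little between sections of the B zone, with a mean of -0.0242 ± 0.00135. It lay above GC_B Border by 0.0102 ± 0.00105, below T zone by 0.0101 ± 0.00136 and below Medulla by 0.0339 ± 0.00513, in 4 of 4 sections each. The B zone thus lay between GC_B Border and T zone. It was 0.00681 above GC_B Border and -0.0133 from T zone in the lower piece, and 0.0132 above and -0.00773 from T zone in the upper. Mo_Nr4a1_SC, Mo_Inmt_SC and Mo_Nr4a1Inmt_SC were above T zone by 0.00861 ± 0.00113, 0.00600 ± 0.00264 and 0.00685 ± 0.00116, and below Medulla by more, in 4 of 4 sections each.

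**Figure D2:**
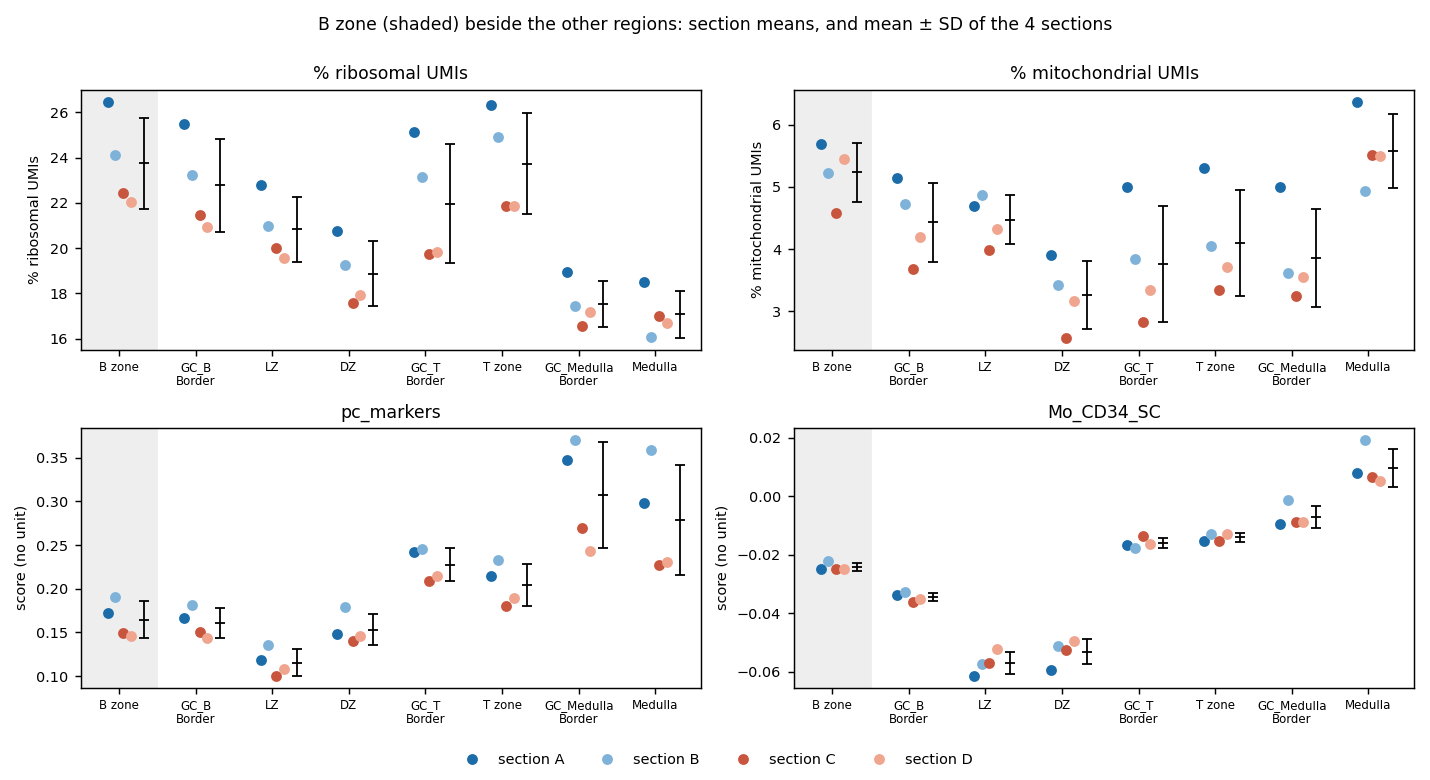
Section means of the percent of ribosomal and mitochondrial UMIs and of the scores pc_markers and Mo_CD34_SC (no unit) in the 8 regions, with the mean ± SD of the 4 sections in black and the B zone shaded. The mean ribosomal percent of the B zone (23.8) is close to that of T zone (23.7), and its mean Mo_CD34_SC lies between GC_B Border and T zone.

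Neighbouring B zone spots were alike in depth and in the mitochondrial and ribosomal percent, and less alike in most scores. Spearman's rho between a spot and the mean of its B zone neighbours, averaged over sections as a description, was 0.757 for UMIs, 0.747 for the mitochondrial percent, 0.695 for the ribosomal percent and 0.645 for Mo_GC_vs_Mem. It was 0.386 for Mo_CD34_SC, 0.376 for pc_markers and 0.196 for Mo_Nr4a1_SC. Differences between sections made up 38.8% of the variance of UMIs over B zone spots, 16.7% for pc_markers and 0.421% for Mo_CD34_SC. Within a section, UMIs and Mo_GC_vs_Mem went together over B zone spots (rho 0.684 ± 0.174). Mo_CD34_SC went with pc_markers (0.363 ± 0.0805) and against Mo_GC_vs_Mem (-0.360 ± 0.127). The spots of 1 section share a library, and depth enters both members of each pair.

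Within the B zone, 5 contrasts of position were formed over 10 measures, 50 comparisons in all. Each was tested by flipping the signs of its 4 section differences (exact permutation test, two-sided), which has 16 sign assignments and a smallest p of 0.125, so no comparison could pass 0.05. A comparison with 1 direction in 4 of 4 sections has this exact p of 0.125 (0.223 after Benjamini-Hochberg adjustment over the 50). This was so for 28 comparisons, 16 higher and 12 lower, and they are given by direction and size. The 4 sections are serial and their labels share 1 sample name stem. They are slices of the same tissue and not replicates from separate animals. SDs and p-values thus describe how these slices vary, which may be technical variation alone, and not how animals vary.

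Edge spots of the B zone were deeper and richer in mitochondrial and ribosomal UMIs than inner spots. Mean UMIs were 13167, 13684, 7665 and 6599 at the edge and 10780, 11333, 5065 and 5094 inside in A, B, C and D. The edge was higher in 4 of 4 sections, by 2211 ± 483 UMIs. The mitochondrial percent was 6.30, 6.23, 5.80 and 6.19 at the edge and 5.43, 4.83, 4.02 and 4.91 inside. The edge values of all sections were above the inner values of all sections, and the difference was 1.34 ± 0.374 percentage points. The ribosomal percent was 2.22 ± 0.548 percentage points higher at the edge, in 4 of 4 sections.

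At the edge, pc_markers and Mo_CD34_SC were also higher than inside. Inner and edge pc_markers were 0.154 and 0.179 in A, 0.177 and 0.191 in B, 0.131 and 0.160 in C, and 0.131 and 0.153 in D, a difference of 0.0228 ± 0.00631. The difference in Mo_CD34_SC was 0.0147, 0.0155, 0.00733 and 0.00962 (0.0118 ± 0.00395). Mo_GC_vs_Mem was lower at the edge in A and B and higher in C and D, a split that runs with section depth. Since edge spots were deeper, each contrast was repeated on residuals of the fit on log10 UMIs. The edge then remained higher in 4 of 4 sections by 0.885 percentage points mitochondrial, 1.46 ribosomal, 0.0163 in pc_markers and 0.0115 in Mo_CD34_SC. Mo_GC_vs_Mem on that scale was lower at the edge in 4 of 4 sections, by a mean of -0.0106.

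**Figure D3:**
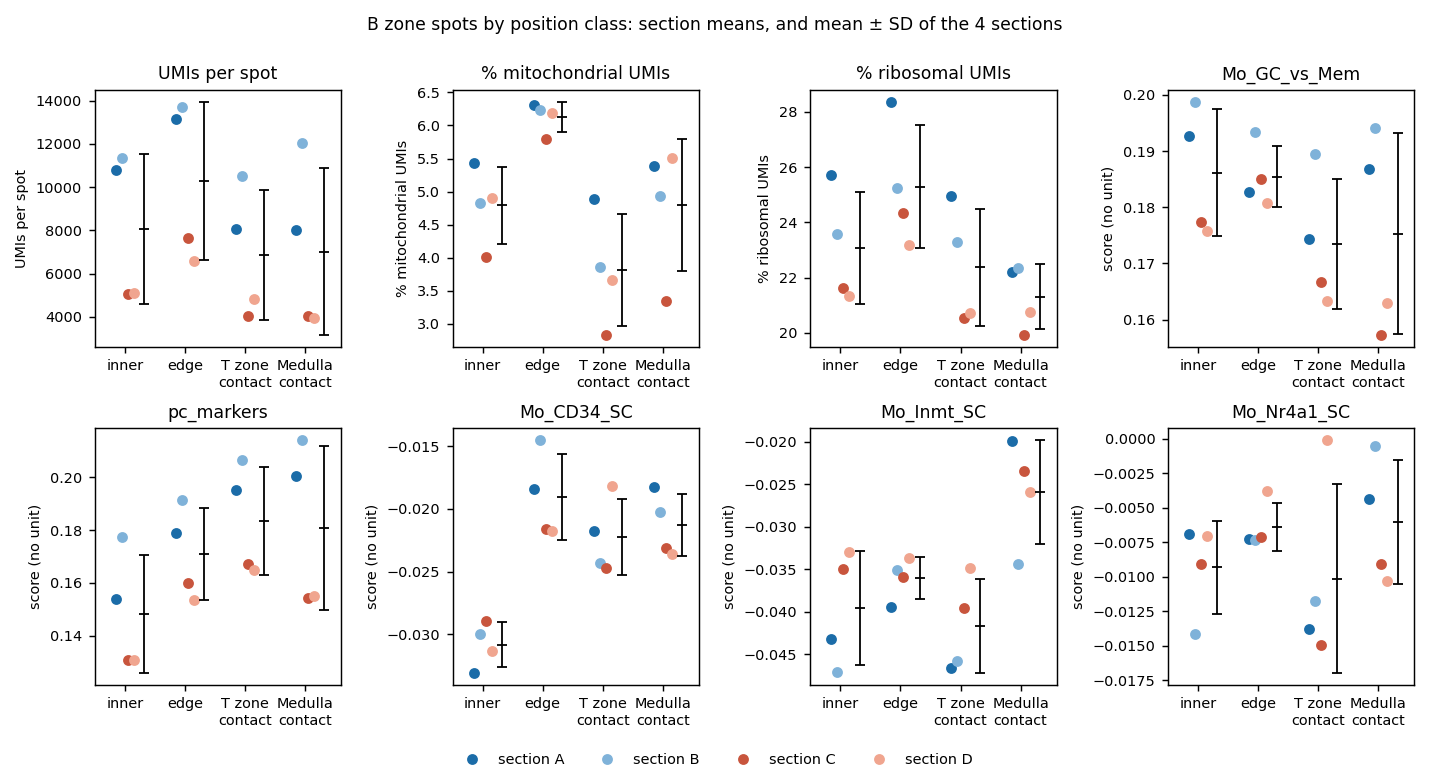
Section means of 8 measures in inner, edge, T zone contact and Medulla contact spots of the B zone, with the mean ± SD of the 4 sections in black (UMIs per spot, percent of UMIs, or score with no unit). Edge spots have the highest mitochondrial percent (6.13 on average), and inner spots the lowest pc_markers (0.148) and Mo_CD34_SC (-0.0308).

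By steps from the tissue edge the profiles were gradual for depth and turned for pc_markers. Mean UMIs were 10279 at the edge, 8171 at 1 step, 7287 at 2, 7036 at 3 and 6665 at 4 or more steps. The mitochondrial percent was 6.13, 5.20, 4.37 and 3.75 at 0 to 3 steps, and 4.11 at 4 or more. In contrast pc_markers was 0.171 at the edge, lowest at 1 step (0.152), and highest at 4 or more steps (0.199), where the bin held 15, 18, 24 and 11 spots in A, B, C and D. Its value there was above the edge value in 4 of 4 sections. These bins pool all position classes. Mean pc_markers was 0.183 in T zone contact, 0.181 in Medulla contact and 0.148 in inner spots. The part of contact spots in the turn was not tested. Mean Mo_CD34_SC also turned, with -0.0191 at the edge, -0.0295 at 2 steps and -0.0169 at 4 or more. Its last bin, however, was slightly below the edge value in A, B and C. It was above the edge value in D alone (-0.0116 against -0.0217).

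**Figure D4:**
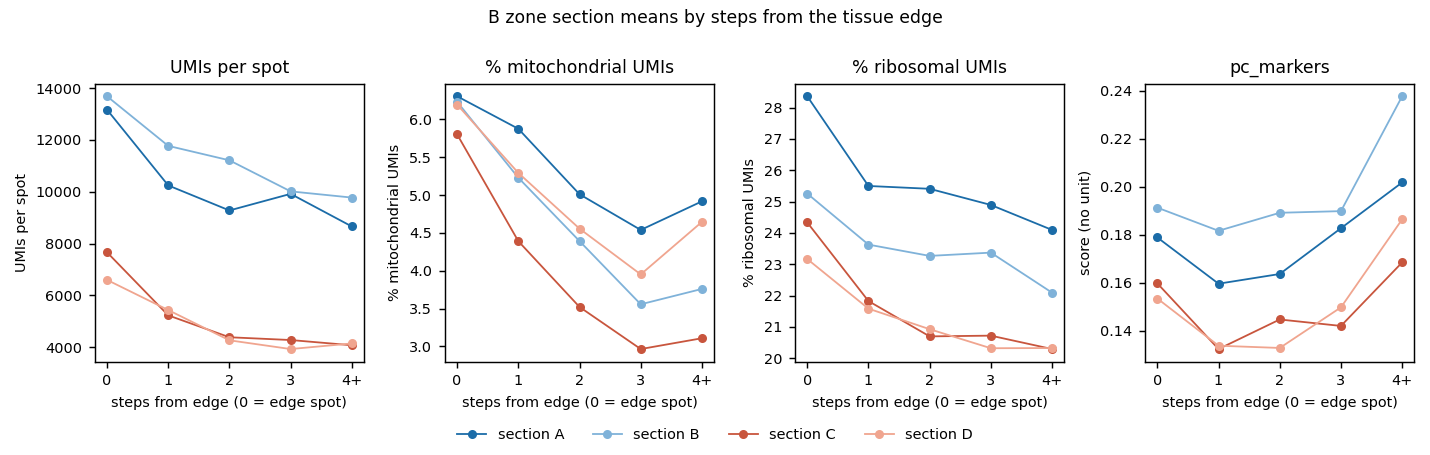
B zone section means of UMIs per spot, percent of mitochondrial and ribosomal UMIs and pc_markers (score, no unit) by steps from the tissue edge, where 0 is an edge spot and the last bin is 4 or more steps. Mean UMIs and the mean ribosomal percent are lower with each step inward, while pc_markers is lowest at 1 step (mean 0.152) and highest in the last bin (0.199). Spots of all position classes are pooled.

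The higher depth, mitochondrial percent and ribosomal percent of edge spots were also seen in GC_B Border and Medulla. At the edge pc_markers was higher in the B zone, lower in GC_B Border and without 1 direction over sections in Medulla. This comparison set edge against all other spots of a region and was added after first looks at the data. The mitochondrial percent was higher at the edge by 1.50 in B zone, 1.54 in GC_B Border and 1.75 percentage points in Medulla, in 4 of 4 sections each. The ribosomal percent was higher by 2.55, 2.45 and 2.00 percentage points in the same order, in 4 of 4 sections each. UMIs were higher by 2674, 2262 and 882. The edge difference of UMIs was larger in B zone than in Medulla by 1793 ± 1012 (4 of 4 sections, exact p = 0.125, adjusted 0.278 over 20 comparisons). For pc_markers the edge difference was 0.0112 in B zone (higher in 4 of 4) and -0.0180 in GC_B Border (lower in 4 of 4). The B zone values were 0.0110, 0.00131, 0.0181 and 0.0145 in A, B, C and D, so the difference was small in section B. In Medulla the edge difference was -0.0209, -0.0288, 0.0250 and -0.000970 in A, B, C and D (-0.00640 ± 0.0240). The B zone exceeded GC_B Border in this edge difference by 0.0426, 0.0326, 0.0226 and 0.0190 (0.0292 ± 0.0106, exact p = 0.125, adjusted 0.278). For Mo_CD34_SC it exceeded GC_B Border by 0.00984 ± 0.00461 in 4 of 4 sections (exact p = 0.125, adjusted 0.278). Medulla had a Mo_CD34_SC edge difference of 0.00819 beside 0.00858 in the B zone, and these differed by 0.000391 ± 0.00627. Against Medulla the pc_markers edge difference was larger in 3 of 4 sections (0.0176 ± 0.0180).

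Spots on the T zone side of the follicle had higher pc_markers and Mo_CD34_SC than inner spots, and lower UMIs, mitochondrial percent, ribosomal percent and Mo_GC_vs_Mem. T zone contact spots scored 0.195, 0.206, 0.167 and 0.165 in pc_markers in A, B, C and D, above the inner spots by 0.0412, 0.0291, 0.0363 and 0.0344. The mean difference was 0.0352 ± 0.00498, higher in 4 of 4 sections. They were lower by a mean of -0.985 ± 0.322 percentage points mitochondrial, -0.691 ± 0.331 ribosomal, -0.0127 ± 0.00403 in Mo_GC_vs_Mem and -1216 ± 1043 UMIs, in 4 of 4 sections each. Without section A the difference in UMIs was -719. Distance from the tissue edge was not held equal between contact and inner spots. From 1 to 3 steps from the edge, mean UMIs went from 8171 to 7036 and the mitochondrial percent from 5.20 to 3.75. The part of that distance in these differences was not tested. On residuals from log10 UMIs the contact spots were lower by a mean of -0.301 percentage points ribosomal and -0.00816 in Mo_GC_vs_Mem, in 4 of 4 sections each. Mo_CD34_SC was higher by 0.00861 ± 0.00434. In A, B, C and D contact spots had a mitochondrial percent of 4.89, 3.85, 2.83 and 3.66. In the T zone it was 5.30, 4.05, 3.35 and 3.71. The ribosomal percent was 24.9, 23.3, 20.5 and 20.7 in contact spots and 26.3, 24.9, 21.9 and 21.8 in T zone. In both percents, contact spots thus lay below inner spots and below T zone in each section. Contact spots can hold cells of the neighbouring region, and the part of such mixing in these differences was not tested.

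Among T zone contact spots, pc_markers was set against the number of T zone neighbours, with the inner spots (mean 0.148) as the reference. With 1 such neighbour it was 0.179, 0.197, 0.150 and 0.174 in A, B, C and D (69 spots). With 2 it was 0.188, 0.204, 0.194 and 0.165 (42 spots), higher than with 1 in A, B and C and lower in D. With 3 or more it was 0.235, 0.239 and 0.168 in A, B and C (28 spots, of which section D had 1), higher than with 2 in A and B and lower in C. The order with neighbour number was thus the same in A and B only, and most of these bins held fewer than 20 spots. By steps from the nearest T zone spot, pc_markers was 0.183 at 1 step and 0.156 at 4 steps, where it was lowest.

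Spots on the medullary side likewise had higher pc_markers than inner spots, with the 4 sections more apart. The difference from inner spots was 0.0467, 0.0370, 0.0233 and 0.0242 (0.0328 ± 0.0112). It was 0.0538 in the lower piece of tissue (4 of 4 sections) and 0.0113 in the upper piece (3 of 3). Section A contributed only 10 Medulla contact spots, and distance from the tissue edge was not held equal here either. The ribosomal percent was lower by -1.75 ± 1.25 percentage points, and Mo_GC_vs_Mem by -0.0109 ± 0.00710, in 4 of 4 sections each. On residuals from log10 UMIs the Mo_GC_vs_Mem difference was -0.00453, lower in 3 of 4 sections. Mo_Inmt_SC was higher by 0.0233, 0.0127, 0.0116 and 0.00707 (0.0137 ± 0.00688), Mo_Nr4a1Inmt_SC by 0.00835 ± 0.00351 and Mo_CD34_SC by 0.00955 ± 0.00387, in 4 of 4 sections each. The mitochondrial percent did not take 1 direction (-0.000959 ± 0.521, 2 of 4 sections higher).

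Set against each other, the 2 inner faces of the B zone differed in 1 direction in 4 of 4 sections in 3 of 10 measures. T zone contact spots were lower than Medulla contact spots in the mitochondrial percent (-0.984 ± 0.633 percentage points), Mo_Inmt_SC (-0.0158 ± 0.00782) and Mo_Nr4a1Inmt_SC (-0.0114 ± 0.00613), in 4 of 4 sections each. In pc_markers the faces differed by 0.00245 ± 0.0106, with 2 sections on each side. In the lower piece the T zone face was lower (-0.0195, 4 of 4 sections) and in the upper piece higher (0.0216, 3 of 3). The mean over both pieces thus hides opposite differences. The 43 spots that touched both regions had mean pc_markers of 0.188, 0.232, 0.178 and 0.145 in A, B, C and D, on 14, 7, 14 and 8 spots, above the inner mean of their section in each case. Between the pieces as a whole, Mo_CD34_SC was 0.00418 ± 0.00172 higher in the B zone of the upper piece, in 4 of 4 sections.

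B zone spots farther from a germinal centre had lower Mo_GC_vs_Mem and higher Mo_CD34_SC. Of the B zone spots 474 lay 2 steps and 318 lay 3 steps from the nearest DZ or LZ spot (near, 792 spots), and 168 lay 6 or more steps away (far). Mo_GC_vs_Mem was 0.188 at 2 steps, 0.185 at 3, 0.180 at 4, 0.179 at 5, 0.176 at 6, 0.172 at 7 and 0.175 at 8 or more. The far minus near difference was -0.0174, -0.000216, -0.0157 and -0.0172 in A, B, C and D (-0.0126 ± 0.00832), so section B was nearly flat. UMIs were lower far away in A, C and D and higher in B. On the residuals from log10 UMIs the mean difference was -0.00773, lower in 4 of 4 sections. Edge spots made up 283 of the 792 near and 82 of the 168 far spots. Far minus near Mo_GC_vs_Mem was -0.0173 ± 0.00671 among edge spots, lower in 4 of 4 sections. Among inner spots it was -0.0152, 0.00832, -0.00874 and -0.0205 in A, B, C and D.

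Mo_CD34_SC was -0.0289 at 2 steps, -0.0255 at 3, -0.0217 at 4, -0.0188 at 5, -0.0171 at 6, -0.0168 at 7 and -0.0152 at 8 or more. Far minus near it was 0.0104, 0.00956, 0.0141 and 0.0131 (0.0118 ± 0.00213), with little spread between sections. For pc_markers the difference was 0.00478, 0.00949, 0.0139 and 0.0114 (0.00990 ± 0.00387). The ribosomal percent was lower far away by -0.555 ± 0.245 percentage points in 4 of 4 sections, but the difference was -0.168 on residuals from log10 UMIs, 0.0402 in the upper piece and 0.0131 with near as 2 and far as 4 or more steps, and its profile was highest at 5 steps (24.6). Mo_Nr4a1_SC was lower by -0.00437 ± 0.00498 in 4 of 4 sections, but the difference was 0.00423 in the lower piece and -0.00208 without section D. Mo_Inmt_SC was higher by 0.00402 ± 0.00308 in 4 of 4 sections, but the difference was -0.00187 in the lower piece and -0.00380 among inner spots.

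**Figure D5:**
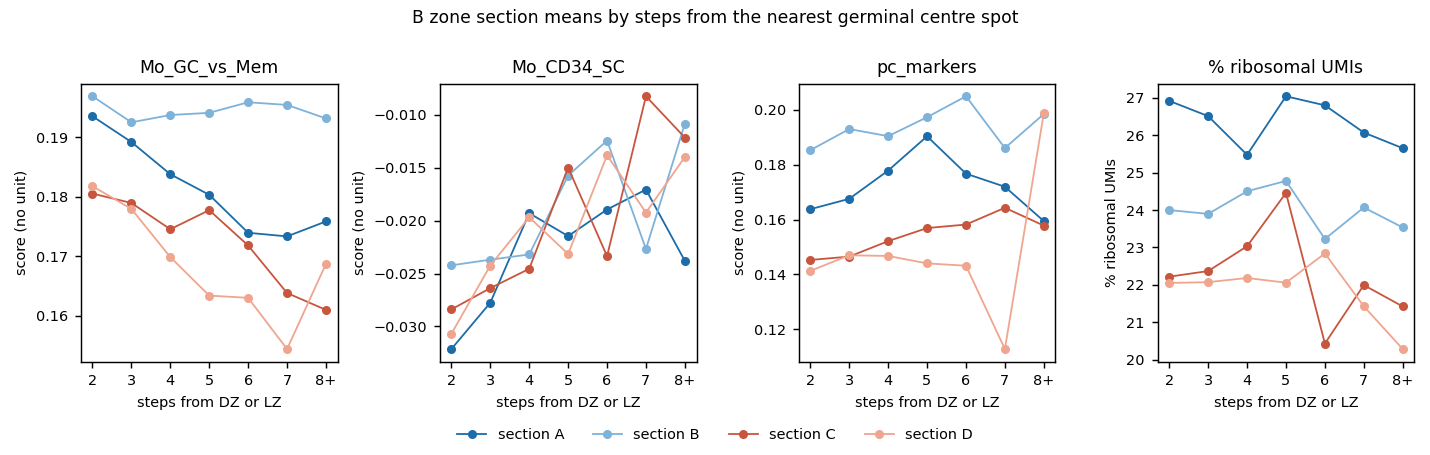
B zone section means of Mo_GC_vs_Mem, Mo_CD34_SC and pc_markers (scores, no unit) and of the percent of ribosomal UMIs by steps from the nearest germinal centre spot, where the last bin is 8 or more steps. Mo_GC_vs_Mem declines in sections A, C and D and is nearly flat in B, and the mean of Mo_CD34_SC goes from -0.0289 at 2 steps to -0.0152 in the last bin.

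The distance gradients of pc_markers and Mo_CD34_SC were larger at the tissue edge than inside, in a comparison added after first looks at the data. At the edge, far spots exceeded near spots in Mo_CD34_SC by 0.0158, 0.0168, 0.0235 and 0.0151. Among inner spots the same difference was 0.00838, 0.00289, -0.000992 and 0.00757. The edge gradient was the larger in 4 of 4 sections, by 0.0133 ± 0.00804 (exact p = 0.125, adjusted 0.250 over 10 comparisons). For pc_markers far spots were higher at the edge in 4 of 4 sections (0.0174 ± 0.00787) and lower inside in 4 of 4 (-0.00514 ± 0.00418). These gradients differed by 0.0193, 0.0219, 0.0130 and 0.0361 (0.0226 ± 0.00974, exact p = 0.125, adjusted 0.250). The inner far class was small, with 22, 7, 8 and 7 spots in A, B, C and D. The highest mean Mo_CD34_SC by edge and distance was that of edge spots far from a germinal centre (-0.00697, 82 spots), and the lowest that of inner spots near one (-0.0320, 353 spots).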

How the data were processed

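Visium RNA libraries of 4 sections of draining lymph node (1 group) were analysed from 1 table with a line per spot. Per the submitters' processing notes, the authors used Space Ranger 1.3.1 and Seurat 4.2.1 with mouse build mm10. The parameters, the region rule and the scores' gene lists were not given in the sources used. The deposited table, per the file headers, gives raw counts (UMIs and genes) per spot, the percent of mitochondrial and ribosomal UMIs, 6 scores and the authors' region and cluster names. Deposited values were used without normalization, and 20, 33, 38 and 29 tissue-marked spots of sections A, B, C and D that the table lacks were not used.

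Members, position classes and measures were chosen with earlier results of these data known. By a fixed rule all 6 scores are named, because the table holds no single genes. Neighbours and steps were counted on the hexagonal array, a class needed 5 spots in a section, and section means gave within-section differences (mean ± SD, n = 4). Exact sign-flip permutation tests and Benjamini-Hochberg adjustment were run in Python 3.11.15 with numpy 2.4.6, pandas 2.3.3 and scipy 1.17.1, and checked on simulated data. Alternatives were medians, ranks, depth residuals, a minimum of 1000 UMIs, other neighbour, class and distance rules, each tissue piece and each section left out.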

Additional observations from a re-analysis of the deposited data

Results flagged for a closer look

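In 4 of the 80 section-wise differences examined, 1 section lay far from the other 3 by Dixon's criterion for 4 values, where chance picks out about 1 in 20 groups. Edge minus inner Mo_Nr4a1Inmt_SC was 0.0133 in section B and 0.00223 to 0.00391 in the others. T zone contact minus Medulla contact Mo_Nr4a1Inmt_SC was -0.00227 in section D and -0.0150 to -0.0142 in the others. Far minus near Mo_GC_vs_Mem was -0.000216 in section B and -0.0174 to -0.0157 in the others. B zone minus T zone Mo_CD34_SC was -0.0122 in section D and -0.00950 to -0.00944 in the others. A count of 4 in 80 is about the rate of 1 in 20 that chance gives. Whether any of the 4 has a cause was not tested.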

How the results depend on the processing

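No paired analysis was possible because the 4 sections form 1 group, so there is no other group to pair by replicate number. The differences themselves were formed within each section. Of 80 differences, 52 had 1 direction in 4 of 4 sections, and in 48 of these the mean kept its sign under every alternative run for them. The other 4 were far minus near differences. Leaving out 1 section could not reverse any of the 52, and the minimum of 1000 UMIs removed no B zone spot. A kept sign did not require 4 of 4 sections. Edge minus inner Mo_Nr4a1Inmt_SC was higher in 2 of 4 among spots 2 or 3 steps from a germinal centre, and Mo_CD34_SC in 3 of 4 in the lower piece. Of 904 alternative values 59 changed sign, 46 within the B zone and 13 between regions.

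Among inner spots alone, far minus near reversed to -0.00514 in pc_markers, -0.00380 in Mo_Inmt_SC and -0.00241 in Mo_Nr4a1Inmt_SC. With near as 2 and far as 4 or more steps, the ribosomal difference was 0.0131. In the lower piece far minus near was -0.196 for the mitochondrial percent, 0.00423 for Mo_Nr4a1_SC and -0.00187 for Mo_Inmt_SC, and T zone contact minus Medulla contact was 296 UMIs, 0.00367 in Mo_GC_vs_Mem and -0.0195 in pc_markers. In the upper piece far minus near was 0.0402 for the ribosomal percent, Medulla contact minus inner was 363 UMIs, 30.6 genes, 0.514 percentage points mitochondrial and -0.000312 in Mo_Nr4a1_SC, and T zone contact minus Medulla contact was -88.1 genes, 0.00226 in Mo_Nr4a1_SC and 0.00197 in Mo_CD34_SC.

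Edge minus inner Mo_GC_vs_Mem became 0.00187 against core spots, 0.000703 in the lower piece, 0.000646 without edge spots touching T zone or Medulla, and 0.00393 among spots 2 or 3 steps from a germinal centre, an alternative chosen after seeing the data, which also gave -0.000106 for Mo_Inmt_SC. T zone contact minus inner Mo_Nr4a1_SC became 0.00256 with medians and 0.00108 against core spots, and Mo_Inmt_SC 0.000122 with overlapping classes. Medulla contact minus inner mitochondrial percent became 0.206 with overlapping classes, 0.216 on depth residuals and 2.60 as a percentile rank. T zone minus Medulla contact became 502 UMIs with medians, 0.245 as a rank of UMIs, and in Mo_GC_vs_Mem 0.00251 with medians and 0.000171 with neighbours from the tissue mark.

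With 1 section left out, edge minus inner Mo_GC_vs_Mem ran from -0.00346 to 0.00237. T zone contact minus inner Mo_Nr4a1_SC ran from -0.00345 to 0.00118. Medulla contact minus inner ran from -0.200 to 0.222 for the mitochondrial percent and from -0.000200 to 0.00542 in Mo_Nr4a1_SC. T zone minus Medulla contact ran from -493 to 305 UMIs, -35.6 to 194 genes, -0.00554 to 0.00173 in Mo_GC_vs_Mem, -0.00106 to 0.00588 in pc_markers and -0.00307 to 0.000111 in Mo_CD34_SC.

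Between regions, these values changed sign. B zone minus T zone ribosomal percent was -0.544 with medians, -0.549 on depth residuals, -0.585 in the upper piece and from -0.168 to 0.289 with 1 section left out. B zone minus Medulla mitochondrial percent was 0.783 in the lower piece. B zone minus GC_B Border was -0.00138 in pc_markers in the lower piece, -0.000128 in Mo_Nr4a1_SC with medians, and in genes 2.00 with medians, 8.25 in the lower piece and from -48.8 to 5.97 with 1 section left out, where UMIs ran from -26.5 to 126.0. Other values moved by more than 1 SD. B zone minus GC_B Border was 1.42 ribosomal and 0.00681 in Mo_CD34_SC in the lower piece, 0.604 ribosomal, 0.00948 in pc_markers and 0.0132 in Mo_CD34_SC in the upper, and 0.634 ribosomal with medians. B zone minus T zone was 0.831 ribosomal, -0.0470 in pc_markers, 0.00484 in Mo_Nr4a1_SC, 0.00539 in Mo_Nr4a1Inmt_SC and -0.0133 in Mo_CD34_SC in the lower piece, and 0.0112 in Mo_Nr4a1_SC and -0.00773 in Mo_CD34_SC in the upper. Medians gave 0.00981 in Mo_Nr4a1_SC and 0.00811 in Mo_Nr4a1Inmt_SC, and depth residuals 0.0215 in Mo_GC_vs_Mem and -0.00845 in Mo_CD34_SC. B zone minus Medulla was -1.10 mitochondrial in the upper piece, and on depth residuals 4.13 ribosomal, 0.0218 in Mo_GC_vs_Mem, -0.0236 in Mo_Inmt_SC, -0.0196 in Mo_Nr4a1Inmt_SC and -0.0260 in Mo_CD34_SC. The cause was not tested. Sections C and D held fewer UMIs per spot than A and B, and the precision that this leaves to the scores cannot be given without their gene lists.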
